A study of Mus musculus with 24 samples.

Results

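The 10 genes E2f1 to E2f7, Rb1, Rbl1 and Rbl2, which encode E2F transcription factors and the retinoblastoma family of pocket proteins, were located among regions of mouse chromatin recovered with lamin B1, lamin A/C and LAP2alpha. They were chosen by symbol from the 22208 protein-coding genes of an mm9 annotation, and all 10 were found. For each gene the percent of its length inside called regions and the distance to the nearest region edge were measured in 12 ChIP-seq libraries. The cells were immortalized murine dermal fibroblasts, a line derived from mouse skin, either wild type (WT, Lap2alpha +/+) or knockout (KO, Lap2alpha -/-), the latter lacking the LAP2alpha product of the gene Tmpo. Chromatin was sonicated for 12 or for 30 cycles. WT chromatin was precipitated with antibodies to LAP2alpha, to lamin A/C (N18, against the N terminus, and 3A6, against the C-terminal Ig fold) and to lamin B1, and KO chromatin with N18 and 3A6 alone. Each of these 12 groups is 1 library, so no difference below has a replicate check, and none could be tested. Within a sonication, the WT and KO lamin A/C libraries shared a flow cell and lane, whereas for lamin A/C and LAP2alpha the 2 sonications came from different flow cells.

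E2F and pocket proteins govern entry into S phase. E2F proteins bind promoters of DNA replication and cell cycle genes, and pRb, p107 and p130, the products of Rb1, Rbl1 and Rbl2, bind the E2F proteins and hold them inactive until cyclin-dependent kinases phosphorylate the pocket proteins. LAP2alpha and lamin A/C form a complex in the nuclear interior that binds pRb, and several E2F and pocket protein genes are themselves E2F targets. E2f1, E2f2 and E2f3 are classed as activators, E2f4 and E2f5 as partners of the pocket proteins in resting cells, and E2f6 and E2f7 as repressors that act without pocket proteins.

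The promoters below belong to genes on which the comparisons turn, namely Rbl2, inside domains in 3 KO libraries and no WT library, Rbl1, inside with LAP2alpha at 12 cycles, and E2f4, whose start site lay in a small-scale enrichment in 5 libraries. E2f1, which no called region held, is shown for contrast. Each stretch covers 170 bases before the start site and 30 bases after it, read 5′ to 3′ along the gene from the mm9 genome, and capitals mark whole matches to the E2F consensus TTTNNCGC on either strand (GCGNNAAA on the opposite one), where N is any base.
Rbl2, chr8:93593786-93593985 (mm9, plus strand): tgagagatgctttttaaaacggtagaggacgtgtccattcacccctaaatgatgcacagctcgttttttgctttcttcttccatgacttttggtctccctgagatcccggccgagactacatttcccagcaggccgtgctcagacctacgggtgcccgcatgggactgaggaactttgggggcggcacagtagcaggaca
Rbl1, chr2:157030241-157030440 (mm9, minus strand): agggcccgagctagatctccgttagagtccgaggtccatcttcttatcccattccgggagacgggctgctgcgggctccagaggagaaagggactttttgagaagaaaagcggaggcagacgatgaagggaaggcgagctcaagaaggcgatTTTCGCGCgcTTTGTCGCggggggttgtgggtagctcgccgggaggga
E2f4, chr8:107821393-107821592 (mm9, plus strand): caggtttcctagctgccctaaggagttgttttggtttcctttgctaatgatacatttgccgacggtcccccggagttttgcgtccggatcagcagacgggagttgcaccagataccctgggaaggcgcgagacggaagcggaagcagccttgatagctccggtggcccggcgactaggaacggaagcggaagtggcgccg
E2f1, chr2:154395599-154395798 (mm9, minus strand): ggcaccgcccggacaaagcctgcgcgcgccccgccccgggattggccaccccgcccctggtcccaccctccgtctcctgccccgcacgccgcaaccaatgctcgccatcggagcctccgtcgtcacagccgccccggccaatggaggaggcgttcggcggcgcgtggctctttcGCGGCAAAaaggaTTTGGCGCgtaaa
In the 300-base window from 250 bases before to 50 bases after the start site, the consensus occurred in 5 of the 9 genes examined (E2f1, E2f3, E2f7, Rb1 and Rbl1) and in 6.16% of 22203 protein-coding promoters. The G+C content of this window was 50.7% (Rbl2) to 80.7% (Rb1) in the 9 genes, against a median of 55.3% over the promoters searched. The motif shares were not adjusted for it. The E2f1 window held 3 matches, at positions 5, 18 and 24 counted from 1 at the start site, of which the last overlaps the one before it and runs past the printed stretch. Those of Rbl1 began 18 and 8 bases before the start. E2f4, E2f5, E2f6 and Rbl2 had no match in this window. Of the 5 genes with a match, E2f7 and Rbl1 lay in a domain of at least 1 library, as did E2f5, E2f6 and Rbl2 among the 4 without. Of all protein-coding genes, 67.1% lay in a domain of at least 1 library. A link between match and domain was not tested.

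Broad regions were called by the authors with EDD, an Enriched Domain Detector that works in bins of 11 kb and finds long domains, and shorter ones with SICER, which joins enriched 1000-bp windows into islands. A library held 194 to 370 domains, covering 239 to 954 Mb, and 4183 to 9159 islands, and such lists give no check of the Lap2alpha deletion. A gene counted as inside when at least 50% of its length was in a domain. Every gene of the family was either wholly inside an EDD domain or wholly outside, in every library. Of the 120 gene and library pairs, 11 were inside (9.17%, against 19.3% over all protein-coding genes). Rbl2 was inside in 3 libraries, E2f2, E2f5 and E2f6 in 2 each and E2f7 and Rbl1 in 1 each, whereas E2f1, E2f3, E2f4 and Rb1 were in no domain of any library. At least 1 library held 6 of the 10 genes, beside 67.1% of all protein-coding genes. SICER islands touched, by at least 1 bp, 24 of the 120 pairs (20%, against 16.9% over all genes) and 7 of the 10 genes in at least 1 library, beside 58% of all genes. E2f1, E2f2 and E2f5 were touched in none. Of the pairs called, 4 had both a domain and an island, 7 a domain alone and 20 an island alone. Of the pairs with an island 16.7% also had a domain, against 36.7% over all genes, and of the pairs with a domain 36.4% also had an island, against 32.2%.

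**Figure D1:**
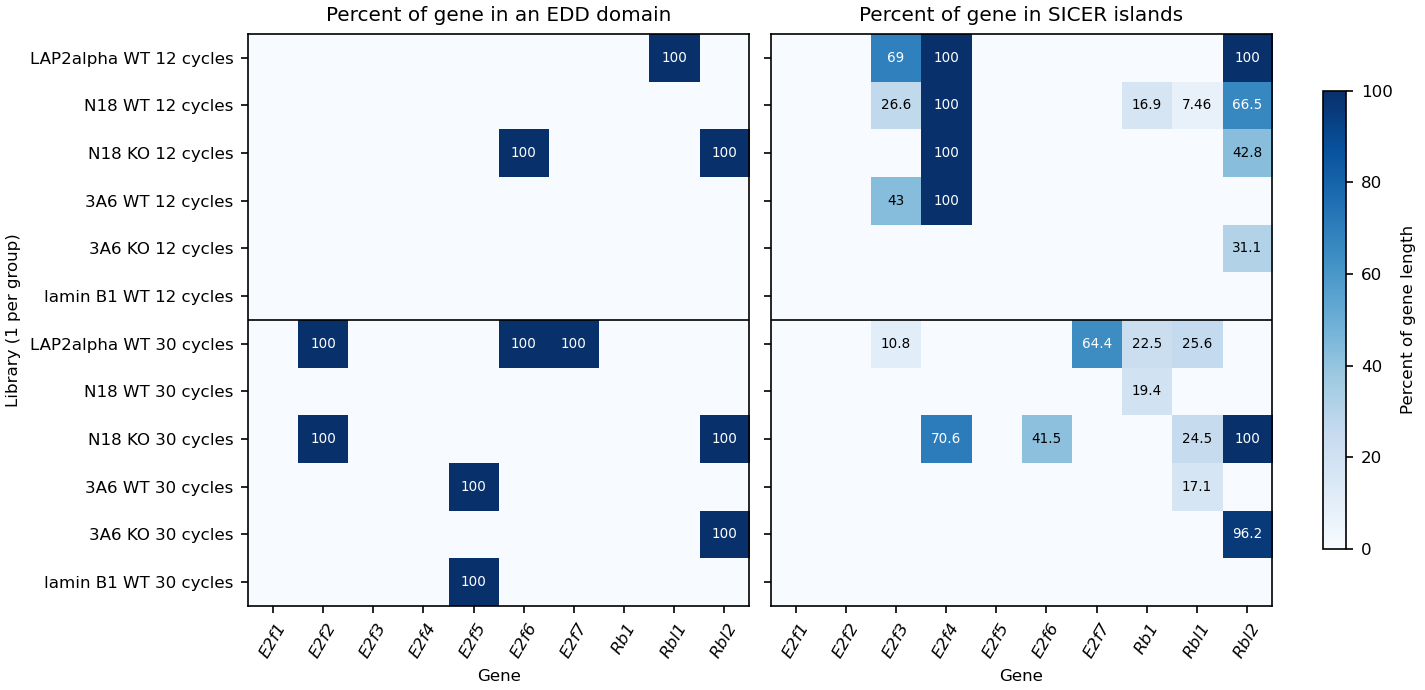
Percent of the length of each of the 10 genes (columns) inside EDD domains (left) and SICER islands (right) in each of the 12 libraries (rows, 12 cycles above the line and 30 cycles below, 1 library per group). Domain coverage is 0 or 100 throughout, Rbl2 is at 100 in 3 KO libraries, and E2f4 is at 100 in islands of 4 libraries at 12 cycles while no domain holds it.

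The comparison of KO with WT asks whether lamin A/C contacts of these genes differ where LAP2alpha is absent. Rbl2, the gene of p130, was outside the domains of all 4 lamin A/C WT libraries and inside in 3 of the 4 KO libraries. The share of all genes with this pattern was not counted. Rbl2 was the one family gene inside in KO alone with both antibodies at the same sonication (1 of 10 at 30 cycles, against 4.24% of all genes). With N18 at 12 cycles, E2f6 and Rbl2 were inside in KO alone (2 of 10, against 7.64% of all genes), and no family gene was inside in WT alone (11.9% of all genes). With 3A6 at 12 cycles, all 10 genes were outside in both genotypes, as were 73.9% of all genes. With N18 at 30 cycles, E2f2 and Rbl2 were inside in KO alone (24.4% of all genes) and none in WT alone (1.76%). With 3A6 at 30 cycles, Rbl2 was inside in KO alone (8.94%) and E2f5 in WT alone (5.75%). No family gene was inside domains of both genotypes in any of these 4 comparisons, beside 15.5% (N18) and 5.7% (3A6) of all genes at 12 cycles and 4.13% and 3.65% at 30 cycles. Over the lamin A/C libraries, the WT domains held E2f5 alone (1 of 10 in any WT library, against 40% of all genes) and the KO domains E2f2, E2f6 and Rbl2 (3 of 10, against 41.3%). By library, the KO domains held 23.1% (N18) and 10.7% (3A6) of all genes at 12 cycles, beside 2 and 0 family genes, and 28.5% and 12.6% at 30 cycles, beside 2 and 1.

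Rbl2 (chromosome 8, 93593956 to 93647743, plus strand, 22 exons) lay between domains in 8 of the 9 libraries that did not hold it, the exception being LAP2alpha at 30 cycles, which had no domain on this chromosome. Its nearest edge was 358 kb away with N18 WT at 12 cycles, 281 kb with 3A6 WT at 12 cycles, 259 kb with N18 WT at 30 cycles and 292 kb with 3A6 WT at 30 cycles. Lamin B1 edges were 402 kb (12 cycles) and 336 kb (30 cycles) away, and that of LAP2alpha at 12 cycles 501 kb. In KO, 1 domain spanned the gene together with both neighbouring stretches. It measured 9.80 Mb with N18 at 12 cycles, 7.32 Mb with N18 at 30 cycles and 15.3 Mb with 3A6 at 30 cycles, the longest of the 316 domains of the last library. The gene was at least 2976 kb from either end of these domains. The KO library of 3A6 at 12 cycles kept the gap, with an edge at 237 kb.

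The islands at Rbl2 gave a different order. They covered 100% of the gene with LAP2alpha at 12 cycles, where they were a single island of 215 kb and 4750 reads. N18 at 12 cycles covered 66.5% in WT and 42.8% in KO, and 3A6 at 12 cycles 0% in WT and 31.1% in KO. At 30 cycles both WT libraries were at 0%, and KO stood at 100% with N18 and 96.2% with 3A6. At 30 cycles, then, domains and islands of both antibodies held Rbl2 in KO and not in WT, and at 12 cycles N18 islands covered more of the gene in WT. Shares over chromosome 8 moved with the domain calls at the gene where these changed, and with its islands at 30 cycles but not at 12. Domains held 40.2% of its 1076 genes in N18 WT and 61.2% in KO at 12 cycles, 8.92% and 48% at 30 cycles, and, with 3A6 at 30 cycles, 2.60% and 32.3%. With 3A6 at 12 cycles, where no domain held Rbl2, the share was 33.0% in WT and 17.8% in KO. Islands at 12 cycles touched 71.7% of the chromosome's genes in N18 WT and 76.4% in KO, while they covered less of Rbl2 in KO, and with 3A6 62.2% and 49.1%, while they covered more of it. At 30 cycles islands touched 34.5% of these genes in N18 WT and 69.9% in KO, and 13.7% and 52.7% with 3A6. Both rose in KO, as did the island coverage of Rbl2. How far the chromosome as a whole carried the gene was not tested.

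**Figure D2:**
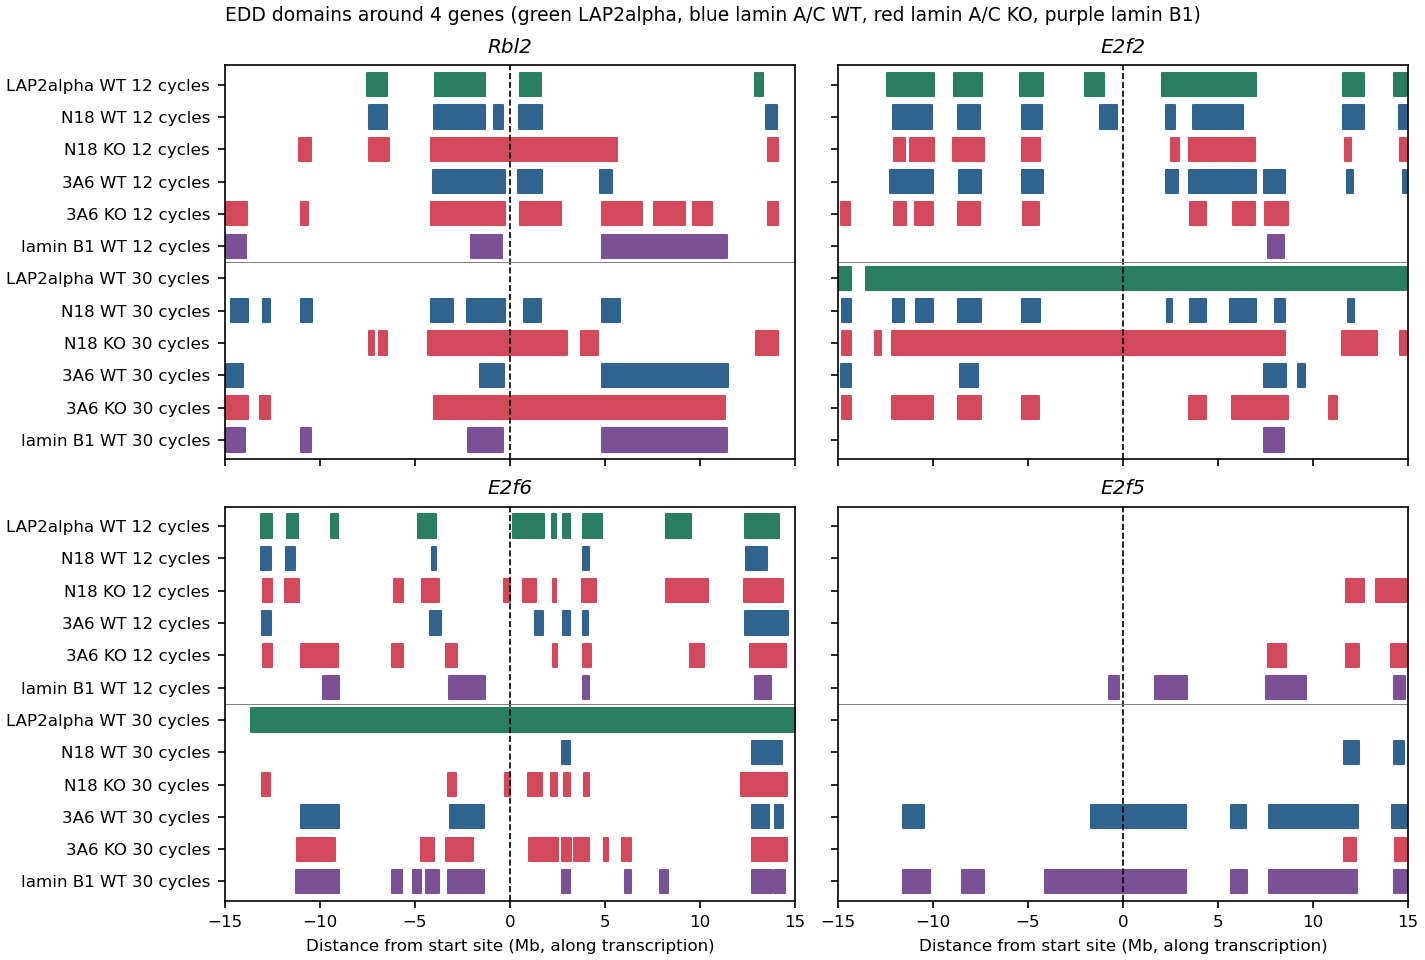
EDD domains (bars) within 15 Mb of the start sites of Rbl2, E2f2, E2f6 and E2f5 in each library, as distance from the start site in Mb along the direction of transcription. The dashed line marks the start site, which falls in a gap between lamin A/C WT domains and within 1 KO domain at Rbl2 in 3 of 4 KO libraries, and 23.2 kb from the end of a small domain at E2f6 (N18 KO, 12 cycles).

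Rbl1 (p107, chromosome 2, 156971629 to 157030270, minus strand, 22 exons) lay near a domain edge in several libraries. The LAP2alpha domain at 12 cycles held it, 67.6 kb from an end of that 17.0-Mb domain, whereas the edge lay 93.7 kb outside the gene with N18 WT and 171 kb outside it with N18 KO and with 3A6 WT at 12 cycles. With 3A6 KO at 12 cycles the nearest edge was 1623 kb away. Islands covered small parts of the gene in 4 libraries, 7.46% with N18 WT at 12 cycles, 25.6% with LAP2alpha at 30 cycles, 24.5% with N18 KO at 30 cycles and 17.1% with 3A6 WT at 30 cycles. These islands lay in different parts of the gene. With N18 they touched its last exons (exon 22 in WT at 12 cycles, exons 19 to 22 in KO at 30 cycles), with LAP2alpha exons 14 to 18 and with 3A6 exons 7 to 11. None held the start site.

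Rb1 (pRb, chromosome 14, 73583480 to 73725629, minus strand, 27 exons) is the longest gene of the family at 142 kb and was in no domain. Its nearest edge was 642 to 697 kb away in 4 libraries at 30 cycles (LAP2alpha, N18 KO, 3A6 WT and 3A6 KO) and 5977 to 17354 kb away in 7 others, and N18 KO at 12 cycles had no domain on chromosome 14. Islands touched Rb1 in 3 of the 8 WT libraries, LAP2alpha without a KO counterpart among them, and in none of the 4 KO libraries. With N18 WT they covered 16.9% at 12 cycles and 19.4% at 30 cycles, in both cases over the 3′ part of the gene (exons 18 to 27 and exons 18 to 23), and the LAP2alpha island at 30 cycles covered 22.5% in the 5′ part (exons 3 to 6). Chromosome 14 moved the same way, islands touching 27.5% of its genes with N18 WT and 11.2% with N18 KO at 12 cycles, and 27.3% and 21.6% at 30 cycles. Islands of 3A6 touched Rb1 in neither genotype. Of all genes, N18 islands touched 11.9% in WT alone at 12 cycles and 6.81% at 30 cycles.

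Of the activator genes, E2f2 alone lay in domains. E2f2 (chromosome 4, 135728309 to 135751972, plus strand) was inside a domain of 32.6 Mb with LAP2alpha at 30 cycles and of 20.7 Mb with N18 KO at 30 cycles, at least 8524 kb from either end in both. In the other 10 libraries the nearest edge was 329 kb (N18 WT, 12 cycles) to 7600 kb (lamin B1, 12 cycles) away. No island touched the gene in any library, also where the domain held it, and islands covered 12.9% and 8.77% of the 1 Mb around its start site in the libraries with the domain. On chromosome 4, the domains of N18 at 30 cycles held 7.43% of genes in WT and 46.9% in KO.

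E2f1 (chromosome 2, 154385143 to 154395628, minus strand) had neither domain nor island in any library. Yet an edge lay 154 to 385 kb from it in 9 libraries, and 4290 to 4301 kb away with lamin B1 at both sonications and with 3A6 WT at 30 cycles. E2f1 and Rbl1 lie 2.58 Mb apart on chromosome 2.

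E2f3 (chromosome 13, 29998444 to 30077537, minus strand, 7 exons) was touched by islands in WT libraries alone. At 12 cycles they covered 69.0% of the gene with LAP2alpha, 43.0% with 3A6 WT and 26.6% with N18 WT, and 0% with either antibody in KO. Only LAP2alpha reached the start site, where an island of 28 kb covered exon 1. The N18 islands touched no exon. At 30 cycles LAP2alpha covered 10.8%, over exons 5 to 7, and both lamin A/C antibodies were at 0% in WT and KO. Islands on chromosome 13 as a whole went the same way: they touched 38.7% of its genes with N18 WT and 1.98% with N18 KO at 12 cycles, and 36.8% and 0.699% with 3A6. Whether E2f3 differed beyond its chromosome was not tested.

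E2f4 (chromosome 8, 107821563 to 107829269, plus strand, 10 exons), whose product is the main partner of p130 in resting cells, was wholly covered by islands at 12 cycles with LAP2alpha, N18 WT, N18 KO and 3A6 WT, and at 0% with 3A6 KO and lamin B1. The islands ran from 92 kb (N18 KO) to 180 kb (LAP2alpha) and so extended far beyond this 7.71-kb gene. At 30 cycles N18 KO covered 70.6%, the start site included, and the other 5 libraries 0%. The gene lay in no domain in spite of this coverage, the nearest edge being 132 kb away in both KO libraries at 12 cycles and 143 kb away with N18 KO at 30 cycles. It lies in the most gene-dense window of the family, with 43 genes starting within the 1 Mb around its start site. Island coverage is high over much of chromosome 8, where 71.7% of genes were touched with N18 WT and 76.4% with N18 KO at 12 cycles.

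E2f5 (chromosome 3, 14578671 to 14606308, plus strand) had no island and was the one family gene inside a lamin B1 domain. The lamin B1 domain at 30 cycles measured 7.37 Mb and that of 3A6 WT at 30 cycles 4.96 Mb, and the pair ended at the same bin. At 12 cycles the lamin B1 edge lay 202 kb outside the gene. In 3A6 KO at 30 cycles the nearest edge was 11596 kb away, and island coverage of the surrounding 1 Mb was 0%, against 23.6% in 3A6 WT and 44.4% with lamin B1. The N18 libraries at 30 cycles left it 11607 kb (WT) and 16425 kb (KO) outside. The window holds 8 gene starts and, at 39.2%, has the lowest G+C content of the 10.

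E2f6 (chromosome 12, 16817771 to 16833549, plus strand, 7 exons) was inside the 60.2-Mb LAP2alpha domain at 30 cycles, one of those that together cover 75.3% of chromosome 12, and inside a small domain of 0.341 Mb with N18 KO at 12 cycles. The latter ended 7.45 kb past the gene, less than the 11-kb bin of the caller, and ranked 219 of 239 by length. With N18 KO at 30 cycles the domain ended 9.77 kb short of the gene instead, and a 9-kb island covered 41.5% of it, over exons 4 to 7. Both distances are below the resolution of the caller. Chromosome 12 had almost no islands in WT, touching 0% of its 700 genes in 7 of the 8 WT libraries and 18% with N18 KO at 12 cycles. E2f7 (chromosome 10, 110182495 to 110224440, plus strand, 13 exons) was inside a 1.42-Mb LAP2alpha domain at 30 cycles, nearly at its centre, and there an island of 27 kb covered 64.4% of it, over exons 3 to 8. In the other libraries it had neither, with the nearest edge 2284 to 23173 kb away or, in both KO libraries at 12 cycles, no domain on chromosome 10.

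Island coverage of the 1 Mb centred on each start site shows the surroundings of the genes, including those that no island touched. In all 4 comparisons of KO with WT it was lower in KO at E2f3 and Rb1 and higher in KO at E2f4, and it was 0 in both genotypes at E2f7. At E2f3 the 12-cycle values were 10.3% (WT) and 0% (KO) for N18, and 13.6% and 0% for 3A6. At E2f4 it was 64.5% in WT and 69.1% in KO with N18 at 12 cycles, and 37.3% and 37.9% with 3A6. At 30 cycles E2f4 stood at 23.5% in WT and 67.3% in KO with N18 and at 11% and 36.8% with 3A6. Rbl2 had a like gap at 30 cycles, with 19.7% and 61.8% (N18) and 19.4% and 34.4% (3A6). With 3A6 at 12 cycles it was higher in WT, at 35.7% and 24.1%. E2f4 and Rbl2 both lie on chromosome 8, where islands at 30 cycles touched 34.5% of genes in N18 WT and 69.9% in KO. With 3A6 at 30 cycles these shares were 13.7% and 52.7%. Whether either gene differed beyond its chromosome was not tested. The remaining genes had different signs in different comparisons or were at 0 in some.

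**Figure D3:**
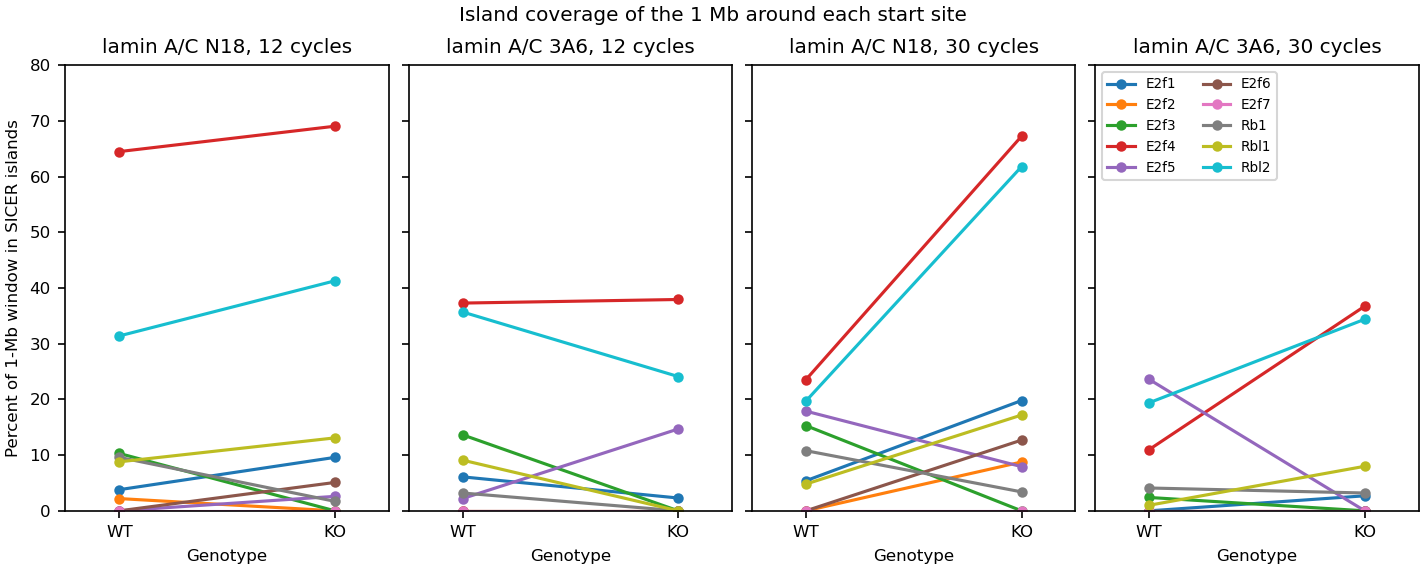
Percent of the 1-Mb window around each start site covered by SICER islands in WT and KO, for each lamin A/C antibody and sonication (panels, 1 library per point). E2f4 and Rbl2, both on chromosome 8, lie above the other genes in WT and KO at 12 cycles and, at 30 cycles, rise from at most 23.5% in WT to between 34.4% and 67.3% in KO.

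The genes inside domains differed between sonications. With LAP2alpha, Rbl1 was inside at 12 cycles alone (1 of 10, against 15.7% of all genes) and E2f2, E2f6 and E2f7 at 30 cycles alone (3 of 10, against 12.1%), with no family gene inside at both (20.2%). LAP2alpha at 30 cycles had no domain on chromosomes 3, 8 and 13, where E2f3, E2f4, E2f5 and Rbl2 lie. With N18 KO, Rbl2 was inside at both sonications (16.3% of all genes), the one such pair among the 6 comparisons, with E2f6 at 12 cycles alone (6.84%) and E2f2 at 30 cycles alone (12.2%). Single genes were inside at 30 cycles alone with 3A6 WT (E2f5, 8.39%), 3A6 KO (Rbl2, 7.35%) and lamin B1 (E2f5, 9.58%), and N18 WT held none at either, beside 24.2% of all genes at 12 cycles alone, 3.18% at both and 2.71% at 30 cycles alone. With 3A6 WT and KO, 1.01% and 5.24% of all genes were inside at both, and 20.1% and 5.47% at 12 cycles alone, and with lamin B1 7.18% and 0.599%, in each case with no family gene. For lamin A/C and LAP2alpha, the effect of sonication and that of the flow cell cannot be told apart. The lamin B1 libraries shared a lane.

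In WT, the 3 targets were compared at the same sonication. LAP2alpha, lamin A/C and lamin B1 came from different flow cells at each sonication, so target and flow cell cannot be told apart. At 12 cycles the LAP2alpha domains held Rbl1 (1 of 10, against 35.9% of all genes), and those of N18 (27.4%), 3A6 (21.1%) and lamin B1 (7.78%) held no family gene. At 30 cycles the LAP2alpha domains held E2f2, E2f6 and E2f7 (32.3% of all genes), N18 none (5.89%), and 3A6 (9.4%) and lamin B1 (16.8%) both E2f5. No family gene was thus in a LAP2alpha domain and a lamin domain of WT at the same sonication, beside 27.6% of all genes at 12 cycles and 6.7% at 30 cycles, so that the count of 0 at 30 cycles is near the background. Islands of LAP2alpha and of at least 1 WT lamin library touched 3 family genes at 12 cycles (E2f3, E2f4 and Rbl2, against 21.3% of all genes) and 2 at 30 cycles (Rb1 and Rbl1, against 6.7%). This counts genes and not shared sites. At 30 cycles the islands did not overlap: LAP2alpha touched exons 3 to 6 of Rb1 and N18 exons 18 to 23. In Rbl1, LAP2alpha touched exons 14 to 18 and 3A6 exons 7 to 11. At 12 cycles LAP2alpha islands touched E2f3, E2f4 and Rbl2 (27.8% of all genes), N18 those 3 genes with Rb1 and Rbl1 (26%), 3A6 E2f3 and E2f4 (22.3%) and lamin B1 none (8.93%). At 30 cycles LAP2alpha islands touched E2f3, E2f7, Rb1 and Rbl1 (18.5%), N18 Rb1 (14.6%), 3A6 Rbl1 (8.27%) and lamin B1 none (8.17%). In KO, the shares of all genes touched were 24% (N18, 12 cycles), 12.9% (3A6, 12 cycles), 22.7% (N18, 30 cycles) and 8.84% (3A6, 30 cycles), beside 2, 1, 4 and 1 family genes.

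**Figure D4:**
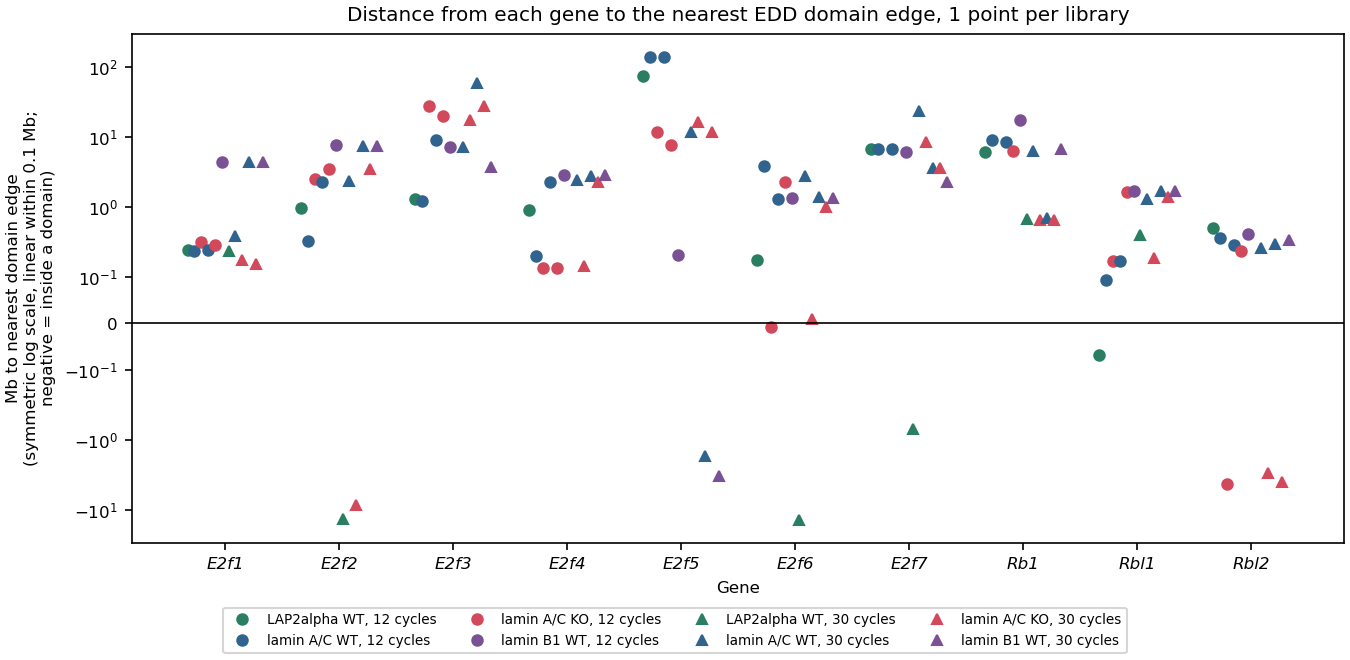
Signed distance in Mb from each gene to the nearest EDD domain edge (symmetric logarithmic axis, linear within 0.1 Mb), 1 point per library that has a domain on the chromosome, negative where the gene is inside. Rbl2 lies 237 to 501 kb from an edge wherever it is outside and a domain is on its chromosome, while E2f5 lies up to 138250 kb from one.

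The distances place the family in the genome's pattern. The median signed distance over the 10 genes ranged from −229 kb (LAP2alpha, 30 cycles, 6 genes with a domain on their chromosome) to 3558 kb (lamin B1, 12 cycles), and over all genes from 411 to 2548 kb in the same 2 libraries. Rbl2, when outside, was nearer to an edge than the median of all genes in each of these 8 libraries, as the values of 237 to 501 kb above show against medians of 552 kb or more. The 10 genes were longer than most, with a median of 34.8 kb against 15.5 kb, and their 1-Mb windows held a median of 8.5 gene starts against 16. The G+C content of these windows did not set them apart, with a median of 44.1% for both.

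A list of 51 other genes of the pathway was described by the same measure. The LAP2alpha domains held 20 of the 51 at 12 cycles (39.2%, against 35.9% of all genes) and 20 at 30 cycles (against 32.3%). At 12 cycles N18 held 16 in WT (31.4%, against 27.4% of all genes) and 10 in KO (19.6%, against 23.1%), and 3A6 9 in WT (17.6%, against 21.1%) and 3 in KO (5.88%, against 10.7%). At 30 cycles N18 held 1 in WT (1.96%, against 5.89%) and 15 in KO (29.4%, against 28.5%), and 3A6 0 in WT (against 9.4%) and 3 in KO (5.88%, against 12.6%). The partner shares thus moved between genotypes with those of all genes. The lamin B1 domains held 0 at 12 cycles (against 7.78%) and 2 at 30 cycles (3.92%, against 16.8%), Mcm3, a subunit of the replicative helicase, and Pola1, the catalytic subunit of DNA polymerase alpha. In no domain of any library were 18 of the 51, beside 32.9% of all genes, and these included Tmpo and Lmna, the genes of LAP2alpha and lamin A/C.

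Partner genes inside in one genotype alone with both antibodies at the same sonication were 3 of 51 in WT alone and 1 in KO alone at 12 cycles (against 5.67% and 2.22% of all genes), and 0 and 1 at 30 cycles (against 0.338% and 4.24%), shares near the background. At 12 cycles Ccnd2 (cyclin D2, which activates the kinases that phosphorylate pRb), Mcm7 (a helicase subunit) and Tk1 (thymidine kinase) were inside in WT alone and Mcm6 (a helicase subunit) in KO alone. At 30 cycles Tfdp1, which encodes the DP subunit of E2F dimers, was inside in KO alone, as was Rbl2, and both genes lie on chromosome 8. Ccnd2, Mcm7 and Tk1, lost from the N18 domains at 12 cycles, were inside in KO and not in WT with N18 at 30 cycles. In that comparison 14 of the 51 partner genes were inside in KO alone, against 24.4% of all genes. Mybl2 (B-Myb, which binds the MuvB complex and is an E2F target) was inside in 9 of the 12 libraries, more than any other gene of either list. Of all genes, 1.29% were inside in exactly 9 libraries. Others were inside in 10 (0.414%), 11 (0.203%) or 12 (0.171%), so 1 such gene among 51 is near the background.

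**Figure D5:**
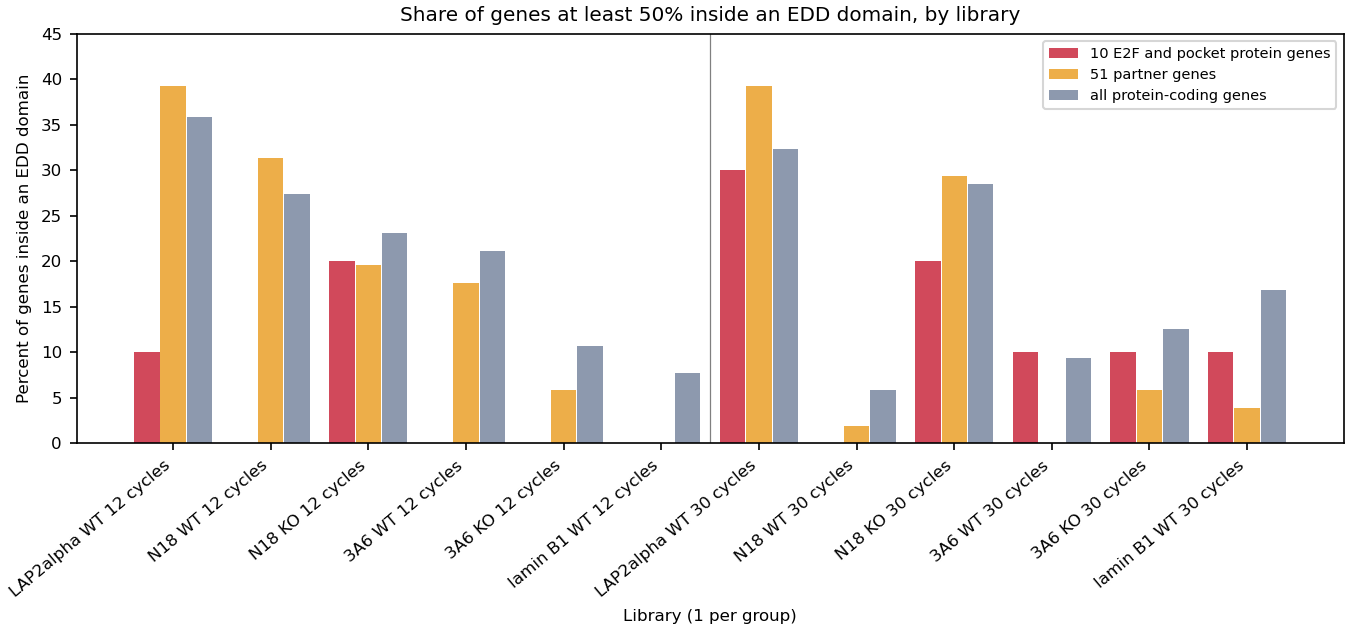
Percent of the 10 family genes, of the 51 partner genes and of all protein-coding genes that were at least 50% inside an EDD domain in each library (1 library per group). The family bar is lower than that of all genes in 11 libraries and higher only with 3A6 WT at 30 cycles, where it stands for 1 gene. Each family bar rests on 10 genes, so 1 gene more would reverse the order in some libraries. The libraries are not separate checks, and no difference was tested.

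Genes with the pattern most like each member were sought on other chromosomes by the mean absolute difference in domain coverage over the 12 libraries. For E2f2, 76 genes had the same domain values in all 12, the first by island coverage and length being Bst1, Tgds and Tpd52l2. For E2f5 there were 315 (1810074P20Rik, Olfr78 and Muc15), for E2f6 21 (Rps15a, Arl6ip1 and Ccnd1), for E2f7 1150 (Slc39a13, Il15ra and Ei24) and for Rbl1 614 (Plcd3, Nmt1 and Timeless). No gene on another chromosome had the values of Rbl2. The nearest were Kdr, at a mean difference of 6.30 percentage points, and Serhl and Rangap1, both at 8.33. Genes on chromosome 8 were not searched. From −0.237 to 0.445 Mb around the Rbl2 start site, the domain calls were those of the gene in all 12 libraries. Any gene lying wholly in that stretch thus shares the values of Rbl2. The KO domains that held Rbl2 held 93 genes with N18 at 12 cycles, 49 with N18 at 30 cycles and 96 with 3A6 at 30 cycles, Rbl2 included. Libraries of 1 lane, and antibodies called against the same input, share their source, so such likeness over 12 libraries is a description.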

How the data were processed

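The data are called regions of 12 ChIP-seq libraries, 1 per group. The 4 input and 8 histone-mark samples are not analysed here. According to the submitters' processing notes and the study's methods, cutadapt trimmed the reads and Bowtie2 2.1.0 placed them on mm9, after which the authors used Picard to drop duplicates and thin each ChIP library to the size of its input. The deposited island lists hold counts, the ChIP reads in each island as called by the authors with SICER 1.1 (window 1000 bp, gap 3000 bp, false discovery rate 0.01). The deposited domain lists hold a score for each domain, written by EDD as the authors ran it (version 1.0.2, bins of 11 kb, gap penalty 5, false discovery rate 0.1), and all domain lengths were multiples of 11 kb. N18 and 3A6 of a genotype and sonication were called against the same inputs. Reads within called islands numbered 3989494 to 13601739 per library, a count that depends on the calls and is not the sequencing depth. Depth limits what could be called and was not compared here. The median read density of islands at 30 cycles was 37.7 reads per kb in N18 WT and 46.35 in KO, and 37.3 and 47.4 with 3A6. At 12 cycles it was 20.5 and 20.65 with N18, and 20.5 and 20.55 with 3A6. No interval for these values could be given, and the spread between libraries of 1 group is unknown.

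Genes were the 22350 protein-coding records of GENCODE vM1 on mm9, with the longest record of each of 22208 symbols. Positions are counted from 1. A gene was inside at 50% or more of its length and touched at 1 bp or more. Signed distances run from the nearest gene end to the nearest domain edge. The 10 genes and the 51 partner genes were chosen with earlier results of these data known. All 10 were named throughout. Partners were named where inside in WT alone or KO alone with both antibodies at the same sonication, or inside in at least 8 of 12 libraries, and Mcm3, Pola1, Tmpo and Lmna were named after their values were seen. For each member in a domain, the 3 genes of most like pattern on other chromosomes were named, with ties broken by island coverage, then length. Coverage and distances were computed in Python 3.11.15 with pandas 2.3.3 and numpy 2.4.6, sequences read with pysam 0.24.0 (1 of the 10 promoters is not reported here), and the interval code was tested on simulated data. Alternatives changed the overlap rule, used start sites, promoters from 2200 bp before to 500 bp after the start, 1-Mb windows or the shortest transcript, kept domains scoring above the library median or of at least 500 kb, or islands above the median read count, or used islands for domains.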

Additional observations from a re-analysis of the deposited data

Results flagged for a closer look

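For 2 genes the difference between KO and WT in island coverage had opposite signs in comparisons that differed in the antibody alone or in the sonication alone. At Rbl2, KO minus WT was −23.8 percentage points of the gene with N18 at 12 cycles, 31.1 with 3A6 at 12 cycles and 100 with N18 at 30 cycles. At Rbl1 it was −7.46 with N18 at 12 cycles, 24.5 with N18 at 30 cycles and −17.1 with 3A6 at 30 cycles. Each value rests on 1 library per genotype, and these differences between antibodies and between sonications were not tested. Domain coverage showed no opposite signs at any of the 10 genes in these comparisons. Between comparisons that differed in both, E2f4 also had opposite signs, at −100 with 3A6 at 12 cycles and 70.6 with N18 at 30 cycles.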

How the results depend on the processing

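The 11 gene and library pairs inside domains were the same 11 when genes touched by 1 bp, wholly covered genes, start sites, promoter windows or the shortest transcripts were used. With domains scoring above the library median 9 of the 11 were left, without E2f6 (N18 KO, 12 cycles) and E2f7 (LAP2alpha, 30 cycles), and with domains of at least 500 kb 10, without that E2f6 call. Under both, N18 KO at 12 cycles held 1 gene, KO alone had 1 and 12 cycles alone had 0. With 1-Mb windows 50% covered, E2f6 was lost there too (1 gene left) and Rbl1 was added with N18 WT at 12 cycles (1 gene). The island pairs fell from 24 to 11 at 50% of the gene and to 9 at the start site, and to 16 with islands above the median read count, all among the 24. At 50% of the gene and at the start site alike, N18 WT at 12 cycles had 2 genes, N18 KO at 12 cycles 1, 3A6 WT at 12 cycles 1, 3A6 KO at 12 cycles 0, N18 WT at 30 cycles 0, N18 KO at 30 cycles 2 and 3A6 WT at 30 cycles 0. LAP2alpha at 30 cycles had 1 and 0, and 3A6 KO at 30 cycles had 0 at the start site. Islands above the median left 3 (N18 WT, 12 cycles), 2 (LAP2alpha, 30 cycles), 1 (N18 KO, 30 cycles) and 0 (3A6 WT, 30 cycles). Islands in place of domains gave, for N18 at 12 cycles, 3 in WT alone (11.9% of all genes), 2 in both (14.1%) and 0 in KO alone (9.87%). For 3A6 at 12 cycles they gave 2 in WT alone (14.9%) and 1 in KO alone (5.55%). For N18 at 30 cycles they gave 1 in WT alone (6.81%) and 4 in KO alone (14.9%). Between sonications, they gave 2 at 12 cycles alone (18.3%) and 1 at both (9.5%) with LAP2alpha. With N18 WT they gave 4 at 12 cycles alone (16.9%) and 1 at both (9.06%). With N18 KO they gave 0 at 12 cycles alone (9.97%), 2 at both (14%) and 2 at 30 cycles alone (8.74%). With 3A6 WT they gave 2 at 12 cycles alone (18.3%), and with 3A6 KO 1 at both (4.38%) and 0 at 30 cycles alone (4.47%). With lamin B1 they gave 0 at 30 cycles alone (3.09%). The 99 partner gene and library pairs inside domains became 96 by start site and 85 with domains scoring above the median. Measured from the start site, the median distance over the 10 genes moved by more than 11 kb in 5 of the 12 libraries and kept its sign in all 12. No paired analysis was possible because each group has 1 library and no test was made, and no replicate could be left out.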
